A study of Rattus norvegicus with 8 samples.

Results

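The imprinted Dlk1-Dio3 miRNA cluster was examined in rat kidney after sham operation and after removal of the opposite kidney. Members were chosen by name: an array entry belonged to the cluster if its miRNA name, without the arm suffix, was 1 of 47 miRNAs of the locus. The array names carry the prefix rno- for rat (rno-miR-379, rno-miR-494, rno-miR-668), which is dropped below. This gave 88 entries of the 758 miRNAs on the array, because 41 of the 47 miRNAs had an entry for each of the 5p and 3p arms and 6 had a single entry without an arm in the name. Of the 88 entries, 12 were detected on at least 1 of 8 arrays (13.6%) and 76 on none (86.4%). Under a stricter demand, that most spots of an entry be well above background on at least 1 array, 4 entries were left. These were miR-494-3p, miR-409a-3p, miR-1188-3p and miR-154-5p, the last through 1 sham array only. The share of all miRNAs that meets the stricter demand is not given here. By the detection call, 252 of 670 miRNAs outside the cluster were detected on at least 1 array (37.6%). In the test between sham and nephrectomized kidneys, 0 of the 10 tested cluster entries passed, beside 0 of all 238 tested miRNAs.

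The arrays were hybridised with RNA of the right kidney of rats of the inbred strain F344/NSlc, all male and aged 10 weeks, with 4 rats per group and each array taken as 1 rat. The sham group had an operation without removal of a kidney and is labelled day 1, the nephrectomized group is labelled day 2, and the design text names 2 days, so surgery and time cannot be told apart if the sample labels hold. No other treatment or allele is named for either group, and the remaining kidney after such an operation is known to enlarge, which is called compensatory growth. All 8 arrays lay on 1 slide with the sham arrays in slide row 1 and the nephrectomized arrays in row 2, so slide row and group cannot be told apart either.

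The Dlk1-Dio3 domain is an imprinted locus: in mice, the protein-coding genes Dlk1, Rtl1 and Dio3 are expressed from the paternal chromosome, and the long RNA Meg3 and the miRNAs from the maternal one. The miRNAs are cut from long transcripts downstream of Meg3, and in mice they are abundant in embryo, placenta and brain and mostly low in other adult tissues. A mature miRNA finds its targets mainly through the seed, bases 2 to 8 from its 5′ end, and the arms of a hairpin have different seeds.

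The mature sequences of the 12 detected entries are shown because the comparison of the groups is made on these molecules. They are from RefSeq, assembly GRCr8, 5′ to 3′, and capitals mark the seed.
miR-1188-3p: cGAGGCUCcccaccaca
miR-379-5p: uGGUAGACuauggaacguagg
miR-411-3p: uAUGUAACacgguccacuaa
miR-299a-5p: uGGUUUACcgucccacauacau
miR-329-3p: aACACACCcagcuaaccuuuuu
miR-494-3p: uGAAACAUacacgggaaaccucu
miR-667-3p: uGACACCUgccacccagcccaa
miR-300-3p: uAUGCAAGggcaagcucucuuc
miR-382-5p: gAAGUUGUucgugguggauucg
miR-668: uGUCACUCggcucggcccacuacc
miR-154-5p: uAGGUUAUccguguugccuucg
miR-409a-3p: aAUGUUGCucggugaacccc
RefSeq held the mature sequence of 86 of the 88 entries, and the 12 detected entries carried 12 different seeds. In all, 5 seeds were shared inside the cluster, by 11 entries. Only 1 of these entries was detected, miR-299a-5p, whose partner miR-299b-5p was detected on no array. miR-329-3p had the seed of miR-362-3p, a detected miRNA that is not part of the cluster.

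For the undetected entries, 6 sequences are shown. The first 4 are arms with known roles, chosen after their values were seen, and the last 2 are the closest relatives of detected entries. Capitals again mark the seed.
miR-127-3p: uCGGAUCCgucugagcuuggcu
miR-433-3p: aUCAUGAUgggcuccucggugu
miR-134-5p: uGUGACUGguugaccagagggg
miR-377-3p: uGAAUCACacaaaggcaacuuuu
miR-299b-5p: cGGUUUACcgucccacauac
miR-381-3p: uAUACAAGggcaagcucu
The array tells these relatives apart only as far as their probes differ. The longest probe of miR-299a-5p shared a run of 16 of its 20 bases with a probe of miR-299b-5p, and that of miR-300-3p shared 14 of 18 with one of miR-381-3p. The longest probe of miR-411-3p shared 10 of 17 bases with its closest neighbour, and no other detected entry shared more than 10. How far signal crossed between such probes was not tested.

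Signal here is the scanner's background-subtracted signal, each array scaled to its 75th percentile, and Feature Extraction, the scanner software, calls each miRNA detected or not on each array. Neither arm was detected for 30 of the 41 miRNAs with both arms, 1 arm was detected for 11, and both arms were detected for 0. The 35 miRNAs with no detected entry were miR-127, miR-134, miR-136, miR-299b, miR-323, miR-337, miR-341, miR-369, miR-370, miR-376a, miR-376b, miR-376c, miR-377, miR-380, miR-381, miR-409b, miR-410, miR-412, miR-431, miR-433, miR-434, miR-485, miR-487b, miR-493, miR-495, miR-496, miR-539, miR-540, miR-541, miR-543, miR-544, miR-665, miR-666, miR-758 and miR-770. By arm, 4 of 41 5p entries, 7 of 41 3p entries and 1 of 6 entries without an arm name were detected. For 47 of the 76 undetected entries the mean signal over the 8 arrays was at or below 0, and for 29 it was above 0. Before scaling, the median signal of the undetected entries ran from −1.14 to −0.284 on the sham arrays and from −0.804 to −0.559 on the nephrectomized arrays. The negative control spots had medians of 1.29 to 1.83 and 1.43 to 1.91 on the same arrays. On every array the median of the undetected entries thus lay below that of the array's own blank spots. This was not particular to the cluster. Undetected miRNAs outside it had medians of −1.73 to −1.21 on sham and −1.44 to −1.30 on nephrectomized arrays, on every array lower than the cluster's. Between 0 and 4 of the undetected cluster entries per array exceeded the 95th percentile of the negative controls. Entries are means over spots and this percentile is of single spots, so they are unlike measures. For 3 undetected entries the mean scaled signal was above that of the dimmest tested member, miR-382-5p (3.22). Silence here means signal not told from background on these arrays, and lower levels were not detectable.

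The silent entries included arms with known roles, named here after their values were seen. Detected entries with known roles are named further below. miR-127-3p, which is antisense to Rtl1 in mice, had a mean scaled signal of 0.0130, and miR-433-3p, which has been linked to kidney fibrosis in mice, had −2.14. miR-134-5p, known for limiting Limk1 in dendrites of rat neurons, had −0.604, and miR-377-3p, known for raising fibronectin in mesangial cells, had −0.927. All 9 entries of the 5 miRNAs that overlap Rtl1 (miR-431, miR-433, miR-127, miR-434 and miR-136) were undetected, and their highest signal on any array was 1.92. The 3 entries on the minus strand, of miR-299b and miR-409b, were also undetected.

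In RefSeq's order all 47 miRNAs lay between Dlk1 and Dio3, with miR-770 inside Meg3. Of the first 13 miRNAs, from miR-770 to miR-370, 1 of 23 entries was detected, miR-1188-3p. Of the 34 miRNAs from miR-379 to miR-410, 11 of 65 entries were detected, and the difference between the segments was not tested. In the mouse this second segment is known as the miR-379 megacluster, which has been linked to endoplasmic reticulum stress in diabetic glomeruli. Within the second segment miR-379, miR-411 and miR-299a were direct neighbours and so were miR-329 and miR-494, and each of the other detected miRNAs stood between undetected ones.

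**Figure D1:**
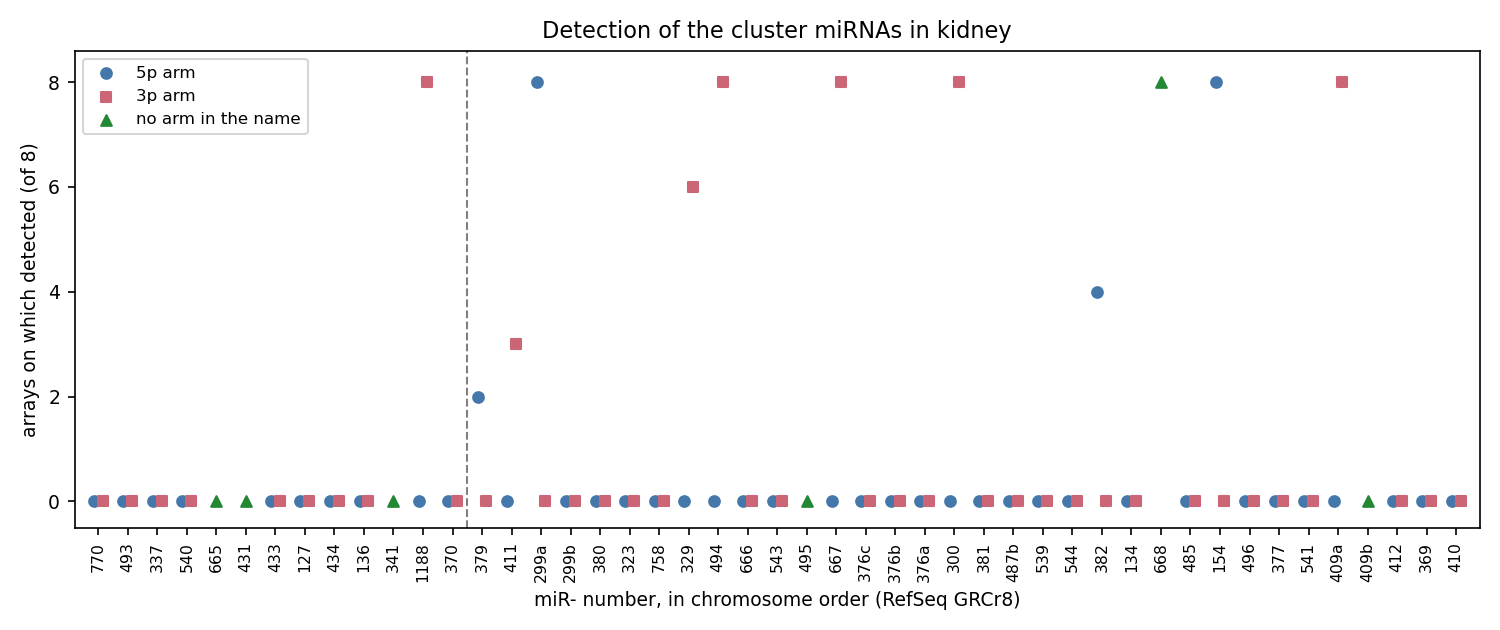
Number of arrays (of 8) on which each entry was detected, with the 47 miRNAs in chromosome order from Dlk1 (left) to Dio3 (right). Blue circles are 5p arms, red squares 3p arms and green triangles entries without an arm in the name; the dashed line separates miR-370 from miR-379. Of 88 entries, 76 sit at 0 and 8 at 8 arrays, and no miRNA has both arms above 0.

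The deposited files place the probes of 9 detected members on chromosome 6 of the rat build rn4, and give no place for miR-1188-3p, miR-300-3p and miR-668. The given intervals are 1 base shorter than the probes, so an end may be off by 1 base. The longest probe of miR-299a-5p lies at chr6:134389831-134389849, that of miR-494-3p at chr6:134394925-134394938, and that of miR-667-3p at chr6:134400564-134400576. The probes are antisense to mature miRNAs, so these positions are inside non-coding RNA genes. All 27 probes of the detected entries paired without a mismatch to the 3′ end of their RefSeq mature sequence.

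The number of entries detected per array was 11, 11, 12 and 9 in sham kidneys and 9, 8, 10 and 9 in nephrectomized kidneys. The groups overlapped at 9, with a mean of 10.75 ± 1.26 (SD, n = 4) against 9 ± 0.816 (SD, n = 4). Over all miRNAs the detected number was 242 to 253 per sham array against 224 to 230, and the unscaled 75th percentile was 7.68 ± 0.11 (SD, n = 4) against 7.40 ± 0.095 (SD, n = 4) on the log2 scale. The nephrectomized arrays were dimmer as a whole, and the part of this in the count of detected entries was not tested. Their labelling spike-ins, which are control spots, were dimmer too. The log2 signal of these spots was 10.47 ± 0.036 (SD, n = 4) on sham arrays against 10.10 ± 0.18 (SD, n = 4), and the groups did not overlap. Differences without scaling, given below, include this fall in brightness. Sums of signal were taken with values below 0 set to 0, so undetected entries add only their positive values. The summed signal of the 88 entries was 0.315%, 0.360%, 0.323% and 0.290% of the array's summed signal in sham kidneys. It was 0.317%, 0.412%, 0.370% and 0.338% in nephrectomized kidneys. These shares overlapped, at 0.322% ± 0.0291 (SD, n = 4) and 0.359% ± 0.0416 (SD, n = 4). A single entry, miR-494-3p, made up 45.8% ± 2.81 (SD, n = 4) of the summed signal of the cluster on the sham arrays, against 44.8% ± 2.32 (SD, n = 4) on the nephrectomized ones. Of its 2 probes, the 15-base probe was bright, at a log2 level of 7.77 in sham and 7.88 in nephrectomized kidneys. The 14-base probe was at 3.67 and 3.80, so the share of miR-494-3p rests on 1 probe. Probes differ in how they bind, so the share is of fluorescence and not of molecules.

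Of the 12 detected entries, 8 were detected on all 8 arrays, 2 on 4 to 6 and 2 on 2 or 3. The 10 detected on at least 4 arrays entered the test, which was limma's moderated test fitted over all 238 miRNAs that passed this filter, two-sided, with Benjamini-Hochberg adjustment over the 238. Levels are log2 of the scaled signal, and differences are nephrectomized minus sham with their standard error (SE). The unscaled arrays differed in brightness between the groups, so each difference is relative to the scaling: without it miR-1188-3p was at −0.045, miR-668 at −0.023, miR-409a-3p at −0.049, miR-154-5p at −0.18, miR-300-3p at −0.12 and miR-494-3p at −0.18, all below 0, while miR-667-3p was at 0.056 and miR-299a-5p at 0.015. The kidney is a mixture of cells, so a difference in the share of a cell type and a difference in miRNA per cell cannot be told apart.

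The member with the lowest p was miR-667-3p. Its levels were 3.12, 3.17, 3.10 and 3.00 in sham kidneys and 3.43, 3.58, 3.32 and 3.42 in nephrectomized kidneys. The groups were separate, with all nephrectomized arrays higher. The difference was 0.34 ± 0.063 (SE, n = 4 per group), or 1.26-fold, with a limma adjusted p of 0.0667, which missed the threshold of 0.05. Unadjusted, its p of 0.000727 ranked 2 among the 238.

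miR-1188-3p, the detected member of the first segment, had levels of 3.44, 3.41, 3.36 and 3.45 in sham kidneys. In nephrectomized kidneys they were 3.59, 3.80, 3.68 and 3.54. These groups did not overlap either, and the difference of 0.24 ± 0.059 (SE, n = 4 per group), or 1.18-fold, had a limma adjusted p of 0.0913.

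miR-668, which protects kidney tubules after ischaemia in mice through the mitochondrial fission gene Mtp18, had levels of 3.14, 3.19, 3.04 and 3.14 in sham kidneys. They were 3.19, 3.52, 3.55 and 3.29 in nephrectomized kidneys. The lowest nephrectomized array lay just above the highest sham array. The difference was 0.26 ± 0.084 (SE, n = 4 per group) with a limma adjusted p of 0.131.

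miR-409a-3p had levels of 4.59, 4.66, 4.40 and 4.53 in sham kidneys and 4.66, 4.93, 4.82 and 4.70 in nephrectomized kidneys. To 2 decimals the highest sham and the lowest nephrectomized array were equal, and the groups were separate only beyond that. The difference was 0.23 ± 0.077 (SE, n = 4 per group) with a limma adjusted p of 0.131.

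miR-299a-5p had levels of 2.88, 2.72, 2.54 and 2.66 in sham kidneys and 3.09, 3.08, 3.07 and 2.76 in nephrectomized kidneys. Its groups overlapped through nephrectomized replicate 4, which lay below sham replicate 1. The difference was 0.30 ± 0.096 (SE, n = 4 per group) with a limma adjusted p of 0.131.

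miR-494-3p, which targets the stress factor Atf3 in mouse kidney ischaemia, had levels of 6.75, 7.07, 6.93 and 6.67 in sham kidneys. They were 6.64, 7.26, 7.05 and 6.88 in nephrectomized kidneys. The groups overlapped over most of their range. The difference was 0.10 ± 0.14 (SE, n = 4 per group), with a 95% interval from −0.22 to 0.43 and a limma adjusted p of 0.701.

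miR-154-5p had levels of 3.05, 3.17, 3.25 and 2.98 against 3.10, 3.37, 3.25 and 3.13, and a difference of 0.10 ± 0.080 (SE, n = 4 per group; limma adjusted p of 0.488). miR-300-3p had 3.05, 2.89, 2.78 and 2.62 against 2.91, 3.30, 2.80 and 2.99, and a difference of 0.16 ± 0.13 (SE, n = 4 per group; limma adjusted p of 0.473). In both, the groups overlapped.

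The remaining members were detected on some arrays only. miR-329-3p, which is induced with the miR-379 to miR-410 transcript by Mef2 in active rat neurons, was detected on 4 sham and 2 nephrectomized arrays. Its levels were 2.73, 2.70, 2.69 and 2.52 against 2.67, 2.79, 2.84 and 2.59, a difference of 0.064 ± 0.071 (SE, n = 4 per group) with a limma adjusted p of 0.628. This difference turned with the processing: it was −0.22 without scaling (limma adjusted p of 0.0274), −1.08 with the scanner's total gene signal and −2.65 in the authors' value table. Without scaling 161 of all 238 tested miRNAs passed, and their median difference over the 238 was −0.29, further below 0 than that of miR-329-3p. The total gene signal and the value table both set undetected miRNAs low (limma adjusted p of 0.354 and 0.292).

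miR-382-5p, which targets kallikrein 5 in mouse kidney fibrosis, was detected on 3 sham arrays and 1 nephrectomized array. Its levels were 1.69, 2.02, 1.87 and 1.22 against 0.72, 2.02, 1.93 and 1.59. The difference was −0.13 ± 0.30 (SE, n = 4 per group), with a 95% interval from −0.82 to 0.56 and a limma adjusted p of 0.827. This interval is the widest of the 10 tested members, and the 15-base probe of miR-382-5p lay at the floor in both groups.

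miR-379-5p, the miRNA that gives the megacluster its name, was detected on 1 array of each group and was not tested. Its levels were 1.62, 1.70, 1.67 and 1.56 in sham kidneys and 1.09, 1.37, 1.91 and 1.96 in nephrectomized kidneys, where the spread was wider on both sides. miR-411-3p was detected on 3 sham arrays and on 0 nephrectomized arrays, and was not tested. Its levels were 2.34, 2.07, 2.15 and 1.95 against 1.65, 2.35, 2.42 and 1.99, so the groups overlapped in spite of the difference in detection. The sham mean was 1.02-fold the nephrectomized mean, which is the measured difference and bounds nothing.

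**Figure D2:**
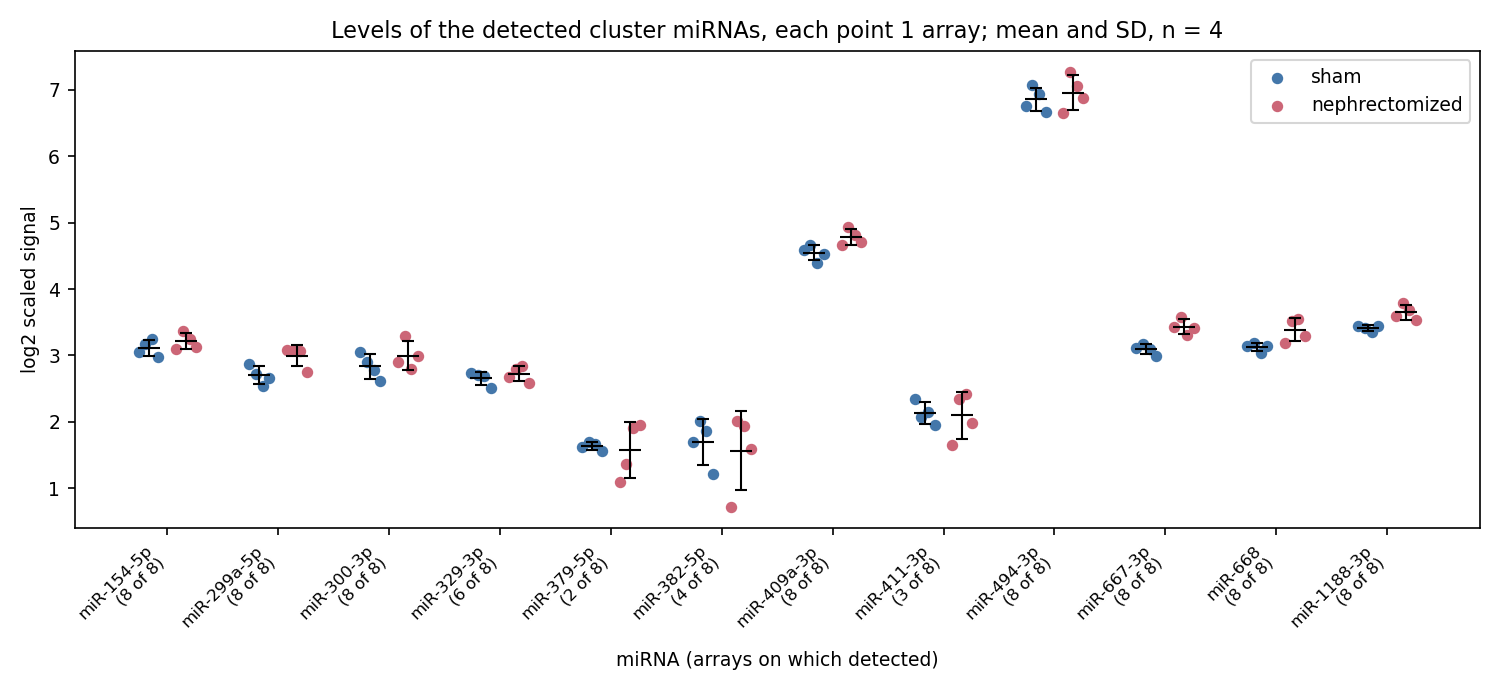
Log2 scaled signal (vertical axis) of the 12 detected entries, with 1 point per array, sham in blue and nephrectomized in red; bars are the mean and SD of 4 arrays, and the number of arrays with a detection call stands under each name. Levels of different miRNAs come from different probes and are not to be set against each other. The groups are separate for miR-409a-3p, miR-667-3p, miR-668 and miR-1188-3p and overlap for the other 8.

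Of the 10 tested members, 0 had a limma adjusted p under 0.05, the share over all 238 tested miRNAs being 0%. At an adjusted p under 0.10 there were 2 of 10, beside 4.62% of all tested. Before adjustment, limma's p was under 0.05 for 5 of 10, all of them higher in nephrectomized kidneys, beside 20.2% of all tested in either direction and 15.5% higher. The groups were separate with the nephrectomized arrays higher for 4 of 10 members, beside 10.5% of all tested, and with them lower for 0 of 10, beside 4.2%. A difference above 0 was found for 9 of 10 members beside 47.5% of all tested, and the median difference was 0.20 beside −0.0077; without scaling of the arrays 2 of 10 members and 4.2% of all tested were above 0, with medians of −0.084 and −0.29. With each array scaled to the percentile over all miRNAs, 6 of 10 members and 21.4% of all tested were above 0, with medians of 0.093 and −0.11. The members were chosen with earlier results known, so no test was made of the list. With the main processing, the 95% interval excluded a 2-fold difference for all 10 tested members and a 1.5-fold difference for 9, the exception being miR-382-5p. This limit does not hold for every processing: with total gene signal miR-382-5p was at −0.98 and, as above, miR-329-3p beyond 2-fold.

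Single probes were read for each tested member. Of 23 probes of the tested members, 20 had a difference above 0 with scaled arrays. The share over the probes of all tested miRNAs is not given here. Probes of the same miRNA overlap in sequence and share the arrays, so they are not separate evidence for a difference. The 4 probes of miR-668, 10 to 13 bases long, gave 0.16, 0.20, 0.31 and 0.46, and the 2 probes of miR-667-3p gave 0.33 and 0.35. The 3 probes of miR-409a-3p lay between 0.22 and 0.25. Probes disagreed more in other members. In miR-329-3p the 19-base probe gave 0.22 and the 20-base probe −0.041, and in miR-300-3p the probes gave 0.010 and 0.22. In miR-382-5p the 16-base probe gave −0.071, and the 15-base probe, at the floor on all 8 arrays, carried no information.

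**Figure D3:**
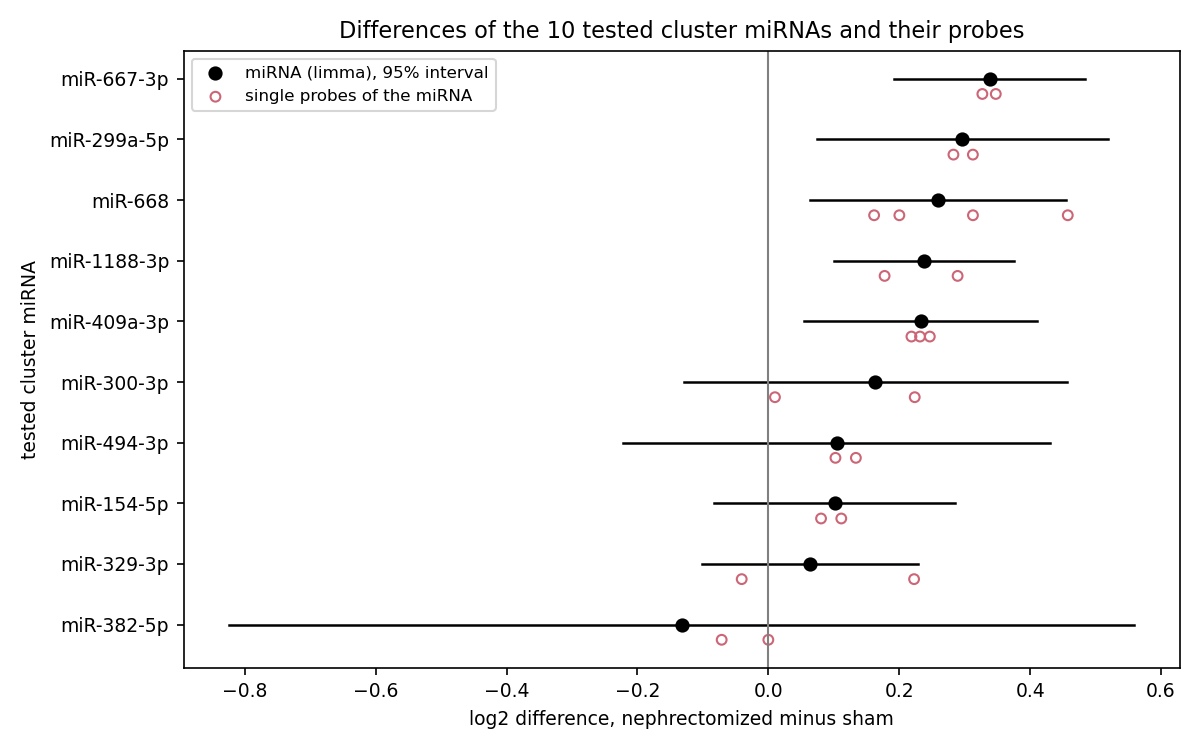
Log2 difference, nephrectomized minus sham (horizontal axis), of the 10 tested members with scaled arrays: black points and lines are limma's estimate and 95% interval, open red circles the single probes. The interval of 5 members lies above 0 before adjustment, the probes of miR-329-3p lie on both sides of 0, and the estimate for miR-382-5p lies outside the range of its probes because signals were averaged over probes before the floor was set.

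The members whose groups were separate were also those with the most GC-rich probes. Their longest probes are shown 5′ to 3′ from the deposited files with those of miR-494-3p and miR-299a-5p for comparison, and capitals mark G and C.
miR-667-3p: ttGGGCtGGGtGGC
miR-1188-3p: tGtGGtGGGGaGCC
miR-409a-3p: GGGGttCaCCGaGC
miR-668: GGtaGtGGGCCGa
miR-494-3p: aGaGGtttCCCGtGt
miR-299a-5p: atGtatGtGGGaCGGtaaaC
The first 3 were 71.4% G and C and the probe of miR-668 69.2%, against 53.3% for miR-494-3p and 45% for miR-299a-5p. In the whole table, the tested miRNAs with at least 60% GC in the longest probe had a median difference of 0.10, and 37 of 51 were above 0; without scaling this median was −0.18. Between 40% and 60% GC the median was −0.010 with 69 of 150 above 0, and below 40% it was −0.058 with 7 of 37 above 0; without scaling these medians were −0.29 and −0.34. Across the 238 miRNAs, which share the same arrays, GC content and difference had a Pearson r of 0.235 and a Spearman rho of 0.323, given as a description.

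Within the GC-rich class the 4 cluster members had a median difference of 0.25, and −0.034 without scaling. Their groups were separate and higher for 4 of 4, beside 12 of 51 (23.5%) of all GC-rich tested miRNAs. Between 40% and 60% GC the 6 cluster members had a median of 0.10, and −0.18 without scaling, and 0 of 6 had separate groups beside 13 of 150 (8.67%). In both classes the median of the members was above that of all miRNAs of the class. Scaling shifts all miRNAs of an array alike, so the unscaled values cannot test this gap. With total gene signal the order turned between 40% and 60% GC, at −0.086 for the members and −0.026 for all. It held in the GC-rich class, at 0.23 and 0.075. The part of probe GC content in the differences was not tested further.

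**Figure D4:**
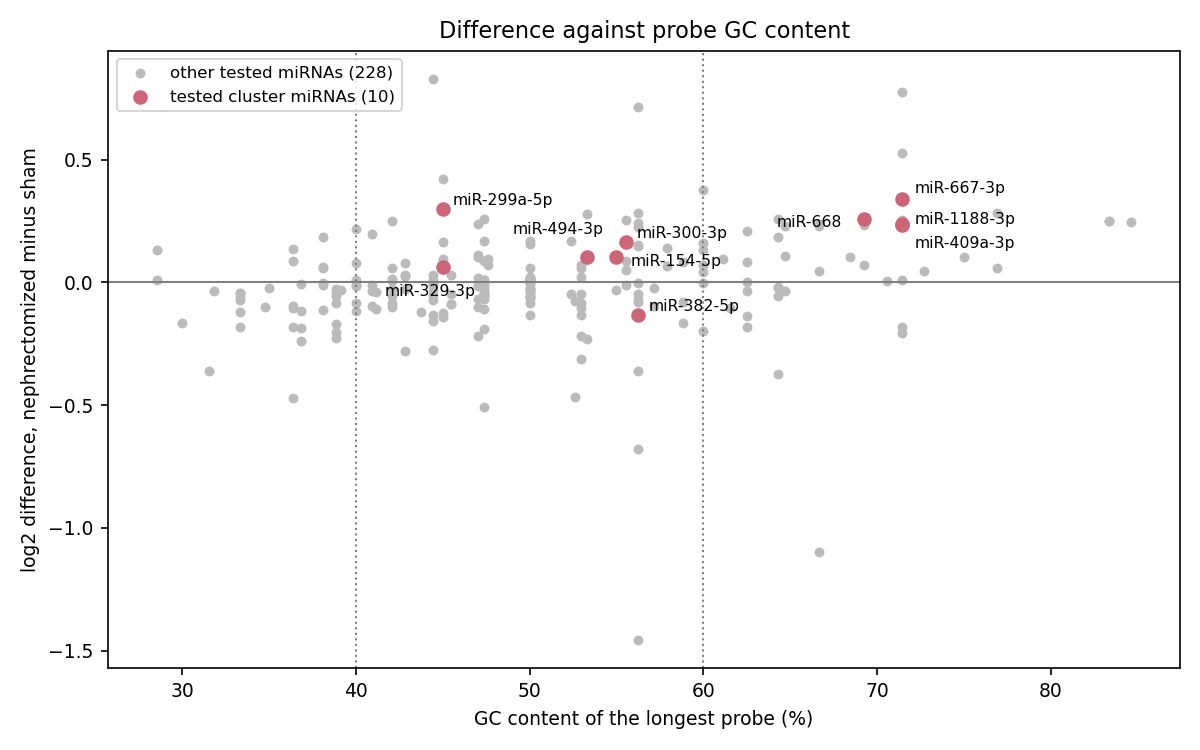
Log2 difference, nephrectomized minus sham with scaled arrays (vertical axis), against the GC content of the longest probe in percent (horizontal axis), for 10 tested cluster members (red, named) and 228 other tested miRNAs (grey); dotted lines mark 40% and 60%. The 4 members above 60% lie between 0.23 and 0.34 and turn to between −0.049 and 0.056 without scaling.

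Probe GC content was also set beside detection. The 12 detected entries had a median of 55.3% (45% to 71.4%) and the 76 undetected entries 50% (23.8% to 78.6%). Detection was 4 of 23 cluster entries (17.4%) at 60% GC or more, 8 of 51 (15.7%) between 40% and 60%, and 0 of 14 below 40%. Over all miRNAs of the array it was 61 of 187 (32.6%), 163 of 433 (37.6%) and 40 of 138 (29.0%) in the same classes. The cluster was below the array's share in each class.

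Single arrays weighed on these values. Nephrectomized replicate 2, the dimmest array with an unscaled log2 75th percentile of 7.28, was the highest of its group in 7 of the 10 tested members. Its median deviation from the group mean was 0.15 over the members and 0.037 over all tested miRNAs. Without it the median difference of the members was 0.12 in place of 0.20. Sham replicate 4 was the lowest of its group in 6 of the 10 members, and nephrectomized replicate 1 in 5.

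**Figure D5:**
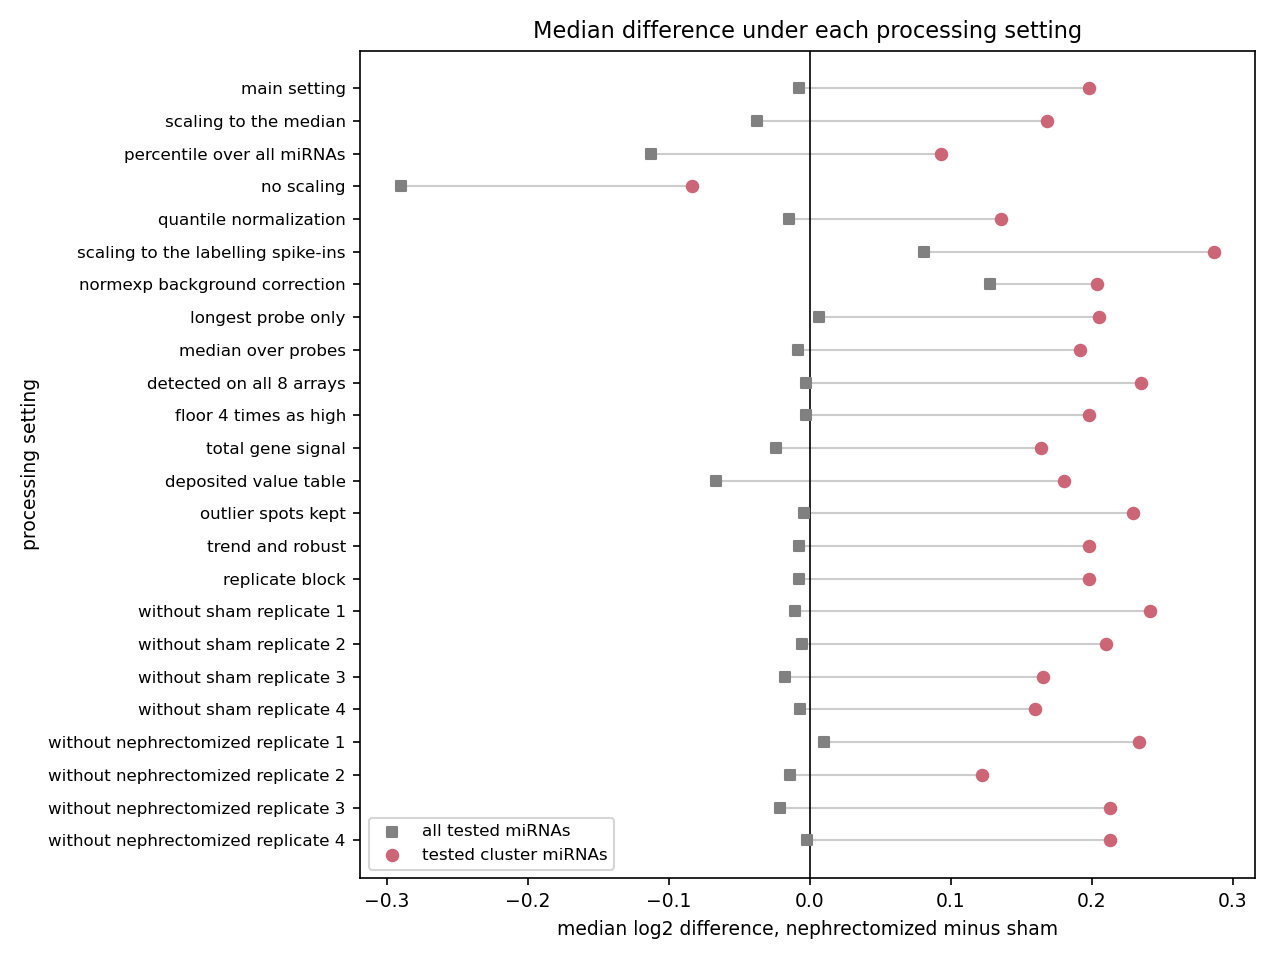
Median log2 difference, nephrectomized minus sham (horizontal axis), of the tested cluster members (red circles) and of all tested miRNAs (grey squares) under each processing setting (rows). The members lie above all tested miRNAs in each setting shown, from a median of 0.29 with spike-in scaling to −0.084 without scaling, which is below 0. Settings that differ only by a factor per array shift both medians alike, so the gap of 0.21 in them is fixed in advance. The smallest gap is 0.076, with normexp. The setting with no filter is not shown, and both medians were 0 there.

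Markers of other cell types were read from lists. All 5 kidney markers (miR-192-5p, miR-194-5p, miR-204-5p, miR-30a-5p and miR-10a-5p) were detected on all 8 arrays. Of 7 markers of neurons and neuroendocrine cells, 5 were detected on at least 1 array and 3 on all 8. Those on all 8 were miR-9a-5p, miR-128-3p and miR-7a-5p, while miR-375-3p was detected on 5 arrays and miR-9a-3p on 3. The remaining miR-124-3p and miR-129-5p were detected on no array. The log2 of the summed signal of these 7 ran from 5.78 to 6.30 in sham kidneys and from 5.61 to 5.95 in nephrectomized kidneys. On at least 1 array, 2 of 4 red blood cell markers and 5 of 5 of leukocytes were detected, and on all 8 arrays 1 and 4. The other lists had the same count either way. It was 2 of 2 for endothelium, 4 of 4 for smooth muscle and fibroblasts, 1 of 4 for striated muscle and 0 of 1 for liver. No marker passed limma's adjusted threshold. The part of nerve, vessel or blood cells in the signal of the cluster was not tested.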

How the data were processed

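Per the file headers, Feature Extraction (Agilent, version 12.0.3.1) wrote the deposited linear intensity of each spot after background subtraction and detrending. Other deposited columns used include marks of 0 or 1 for detected miRNAs, outlier spots and spots well above background, and the probe sequences and positions. The alternative with total gene signal used the scanner's column of that name. The normexp alternative used the mean signal and median background of each spot. The authors' value table is in log2. The sources used here do not give its scale and centring. Its column medians ran from −0.25 to 0.17, and it served as an alternative.

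Control and outlier spots were left out. Spots were averaged per probe, then probes per miRNA. Arrays were scaled to the 75th percentile of the 214 miRNAs with a detection call everywhere, and log2 was taken after a floor of 0.925 was applied. miRNAs detected on at least 4 arrays (238) were tested with limma 3.58.1 in R 4.3.3 (group as the only term, Benjamini-Hochberg, threshold 0.05), after a check on simulated data. The number of arrays limits the precision. If the arrays are not separate rats, the p-values measure only the spread between samples.

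Every entry detected on at least 1 array was named with its values. Undetected miRNAs were listed by name, and values are given for a few of their arms, chosen after their values were seen. The members, marker lists and tests were chosen with earlier results of these data known. RefSeq (GRCr8) gave sequences and order only, since the probe positions are in rn4.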

Additional observations from a re-analysis of the deposited data

Results flagged for a closer look

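In nephrectomized kidneys the level of miR-299a-5p was 2.76 on replicate 4 and 3.07 to 3.09 on the other 3 arrays, a gap large enough against the range of the group to be picked out by Dixon's criterion. Of 28 groups of 4 arrays examined in this way this was the only one, and chance alone picks about 1 in 20. Without this array the groups of miR-299a-5p would not overlap.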

How the results depend on the processing

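With the main settings 0 miRNAs passed an adjusted p of 0.05 and 48 an unadjusted 0.05. The count past the adjusted threshold was 19 with the percentile over all miRNAs, 161 without scaling, 156 with normexp, 7 with total gene signal, 7 with trend and robust fitting, 5 with the longest probe only, 5 with the deposited table, 4 with a floor 4 times as high, and 1 each with quantile normalization, spike-in scaling and detection on all 8 arrays. Leaving out 1 array gave 0 to 5. The unadjusted count was 109 with the percentile over all miRNAs, 173 without scaling, 161 with normexp, and 38 to 56 leaving out 1 array. Among members, miR-667-3p passed with the high floor (adjusted p of 0.0473), total gene signal (0.0361), the deposited table (0.0207), trend and robust fitting (0.0394) and without nephrectomized replicate 3 (0.0229). With normexp 9 of 10 members passed, and without scaling miR-329-3p did, as lower (0.0274). The cause was not tested.

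The median of the members was −0.084 without scaling and 0 with no filter, where most of the 88 entries lay at the floor, and 0.12 to 0.24 leaving out 1 array. Some directions turned. With the percentile over all miRNAs, miR-154-5p was at −0.0039, miR-329-3p at −0.041 and miR-494-3p at −0.00066. Without scaling, miR-1188-3p was at −0.045, miR-154-5p at −0.18, miR-300-3p at −0.12, miR-329-3p at −0.22, miR-409a-3p at −0.049, miR-494-3p at −0.18 and miR-668 at −0.023. miR-382-5p was at 0.20 with normexp, 0.012 with the high floor and −0.29 to 0.15 leaving out 1 array, the latter without nephrectomized replicate 1. miR-329-3p was at −0.036 with the longest probe. Total gene signal, which sets undetected miRNAs low, gave −0.28 for miR-154-5p and −1.08 for miR-329-3p, and the deposited table −0.32 and −2.65. Of 237 values of single members, 206 kept direction and side of the threshold.

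The share of signal was 4.10% and 4.68% in sham and nephrectomized kidneys with normexp, whose offset adds to every entry, 0.257% and 0.280% with total gene signal, and 0.253% and 0.286% over tested entries only. It ran from 0.309% to 0.333% and from 0.341% to 0.373% leaving out 1 array. The count of detected entries was 4 when most spots had to be well above background, and 12 leaving out any 1 array. Same-numbered arrays did not deviate together (correlations of 0.053, −0.077, 0.28 and −0.23), so the numbers were not taken as pairs. The fit with the replicate number as a block passed 0 miRNAs adjusted and 47 unadjusted, with a lowest adjusted p of 0.161 among members and a median of 0.20. A slide block was not run because there was 1 slide.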

Other observations

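Among the array's other miRNAs that RefSeq places between Dlk1 and Dio3, 12 were not on the list of 47, and 1 of them was detected, miR-3544, named here after its values were seen. It lies on the minus strand opposite miR-337-5p, and its mature sequence from RefSeq (GRCr8), with the seed in capitals, is shown because it is antisense to a silent member.
miR-3544: aACUCCUGcaugacgccguuccc
Its log2 levels were 4.10, 4.23, 4.06 and 4.18 in sham kidneys and 4.23, 4.50, 4.45 and 4.37 in nephrectomized kidneys, and the groups were separate. The difference was 0.24 ± 0.067 (SE, n = 4 per group) with a limma adjusted p of 0.121. The GC content of its longest probe was 69.2%, in the range of the 4 members with separate groups.

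Among the undetected entries, also named after their values were seen, the highest mean scaled signals were 4.83 for miR-369-5p, 4.25 for miR-299b-5p and 3.81 for miR-410-3p. The 95th percentile of the negative control spots, taken singly, ran from 3.66 to 4.78 per array before scaling, while entries are means over spots.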
